A study of Mus musculus with 8 samples.

Results

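The cadherin superfamily members of the mouse genome were examined for PRDM16 binding in the embryonic cortex. Members were the protein-coding genes of RefSeq (mm10) whose symbol is Cdh with a number, any Pcdh symbol, Fat1 to Fat4, Dchs1, Dchs2 or Celsr1 to Celsr3, which gave 101 of 21883 protein-coding genes. They comprised 23 Cdh genes, 12 protocadherin genes that stand alone, 57 clustered protocadherin genes on chromosome 18 (14 Pcdha, 22 Pcdhb and 21 Pcdhg) and 9 Fat, Dchs and Celsr genes, so that 44 members lay outside the cluster. A ChIP-seq region was assigned to a member when its summit, the base of highest enrichment, lay in the gene, or within 100 kb of the gene's nearer end with no closer protein-coding gene. The RefSeq table gives gene bodies without exons, so exonic and intronic positions were not separated.

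PRDM16, a zinc-finger chromatin and transcription regulator of the PR-domain family, was precipitated from whole cortex lysates at E15.5, in the embryo, after crosslinking with PFA and EGS and sonication. The WT group carried Prdm16 flox/flox alleles with no Cre listed, and the cKO group carried Emx1Ires-Cre; Prdm16flox/flox, so both groups share the floxed alleles. Emx1 drives Cre in the dorsal telencephalic lineage, so other cells of the lysate, such as vessels and cells that migrate in from elsewhere, keep intact alleles. Each genotype had 2 ChIP libraries, which were used as 4 separate peak lists, and the input libraries were not analysed here. The labels do not say whether the replicates of a genotype were separate embryos, pools or litters, and p-values measure only the spread between these samples.

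Cadherins are calcium-dependent adhesion proteins of the cell surface. Classical cadherins bind catenins and hold the adherens junctions that radial glia, the stem cells of the cortex, form at the ventricular surface. Protocadherins give weaker and more selective adhesion between neurons, and the Fat, Dachsous (Dchs) and Celsr proteins, very large relatives, set the polarity of cells within a sheet.

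Regions at the members were many in WT and few in cKO. The lists of WT replicates 1 and 2 held 91 and 201 regions assigned to members, and those of cKO replicates 1 and 2 held 16 and 10. Both WT lists lay above both cKO lists, with means of 146 ± 77.8 and 13 ± 4.24 for WT and cKO (SD, n = 2 libraries each). The ratio of 11.2 stood beside a ratio of 5.30 over all regions of the lists, which held 13852 and 26652 regions in WT and 4553 and 3088 in cKO. Member regions made up 0.657% (95% Wilson interval 0.535 to 0.806) and 0.754% (0.657 to 0.865) of the WT lists, against 0.351% (0.216 to 0.570) and 0.324% (0.176 to 0.595) of the cKO lists. These intervals, like all others here, cover counting error only.

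The lists differ in length and the libraries in depth. The lowest local background that could be solved from a list, in fragments covering a base, was 0.777 and 1.78 in WT and 2.95 and 2.52 in cKO, so it was higher in both cKO libraries than in either WT library. When each list was cut to its 3088 most significant regions, the length of the shortest, 23 and 22 member regions were left in WT and 12 and 10 in cKO. The groups still did not overlap, but the ratio was 2.05. Both WT files carried the same library identifier and both cKO files another, so genotype and that identifier cannot be told apart.

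Of the WT regions, 64 were present in both replicates, and 62 of these overlapped no region of either cKO list by as much as 1 bp. Those 62, called WT-only regions below, were 96.9% of the 64 (89.3 to 99.1). Over all protein-coding genes, 7331 of 8082 such regions were WT-only, or 90.7% (90.1 to 91.3). The median fold enrichment of the WT-only regions, the mean of the authors' values in both replicates, was 8.36 at members (range 4.17 to 31.6) and 7.39 over all genes. In all 62, both WT folds exceeded 3.29 and 3.37, the 5th percentiles of the folds called in cKO replicates 1 and 2. If the lower WT fold is divided by 2, 29 and 28 of the 62 stay above those levels. The levels are not detection limits, since the cKO lists hold folds down to 1.75 and 1.95. Folds also rank regions only within a list. Absence from a cKO list thus leaves room for remaining signal at any of the 62.

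**Figure D1:**
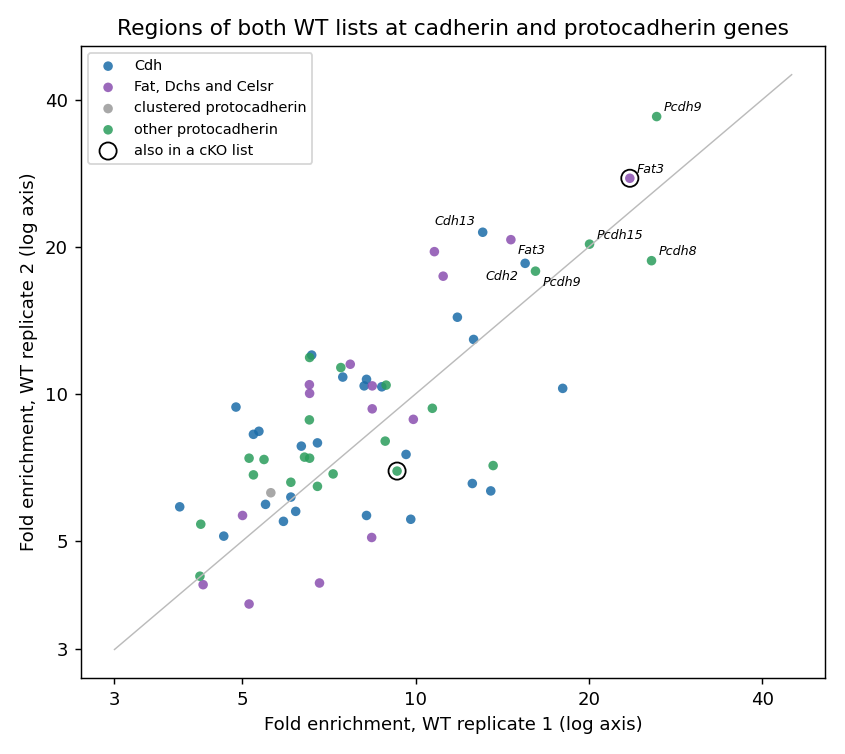
Fold enrichment of the 64 member regions found in both WT lists, in WT replicate 1 (horizontal, log axis) and WT replicate 2 (vertical, log axis), coloured by gene family, with the line of equal values in grey. Circles mark the 2 regions that also overlap a cKO list, and 61 of the 62 others lie within a factor of 2 of the line.

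Members with at least 1 WT-only region numbered 38 of 101, but 14 of these are Pcdha genes that overlap each other and share 1 region. Outside the cluster the count was 24 of 44 members (54.5%), where 16.6% of all protein-coding genes had such a region. Members are long and lie in sparse DNA: the genome assigned to a member outside the cluster had a median of 288 kb, against 45.8 kb over all genes. In the band of genes with most assigned genome (over 110 kb), 24 of 36 members outside the cluster had a WT-only region beside 41.8% of all genes in that band. In the 3 shorter bands, where 2.61%, 6.71% and 15.1% of all genes had one, none of the 8 members outside the cluster did. Per length, members held 3.56 WT-only regions per Mb of assigned genome and all genes 3.84, so the density at members was not above that over all genes.

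**Figure D2:**
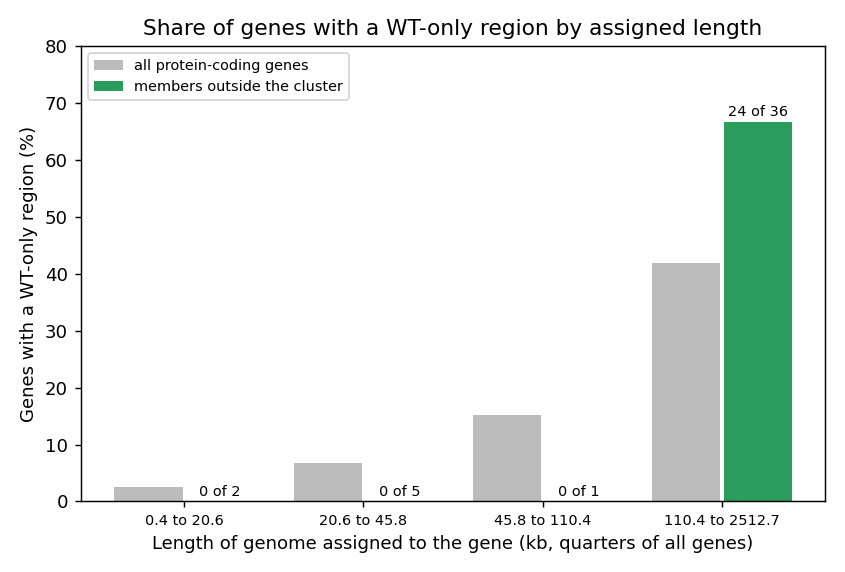
Percentage of genes with at least 1 WT-only region (vertical) in 4 bands of assigned genome length (horizontal, kb), for all protein-coding genes (grey) and for the 44 members outside the cluster (green, with counts). 36 of the 44 members fall in the longest band, where 24 have a WT-only region.

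Density varied among the families. It was 7.08 WT-only regions per Mb for Fat, Dchs and Celsr genes, 3.59 for the stand-alone protocadherins, 2.88 for Cdh genes and 1.72 in the protocadherin cluster. Within the Cdh genes, the 5 type I classical cadherins held 9.59 per Mb, all 11 of their WT-only regions being at Cdh2 and Cdh4, while the 13 type II cadherins held 1.54 per Mb with 9 regions at 6 genes. These densities rest on few regions and were not tested.

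At single genes, 26 of the 44 members outside the cluster had more regions in each WT list than in each cKO list, beside 15.7% of all protein-coding genes. These shares were not matched for assigned genome, which had a median of 288 kb at those members and 45.8 kb over all genes. With 2 libraries against 2, an exact two-sided permutation test cannot give less than p = 0.333, so this test cannot pass 0.05. Of the 23 genes of the naming rule, 16 had both WT lists above both cKO lists and 1, Fat2, had both cKO lists above both WT lists, each with p = 0.333 by the exact permutation test. The rule takes in members by their WT-only regions and by their regions in both cKO lists. These counts thus follow in part from the choice of genes and are a description only.

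**Figure D3:**
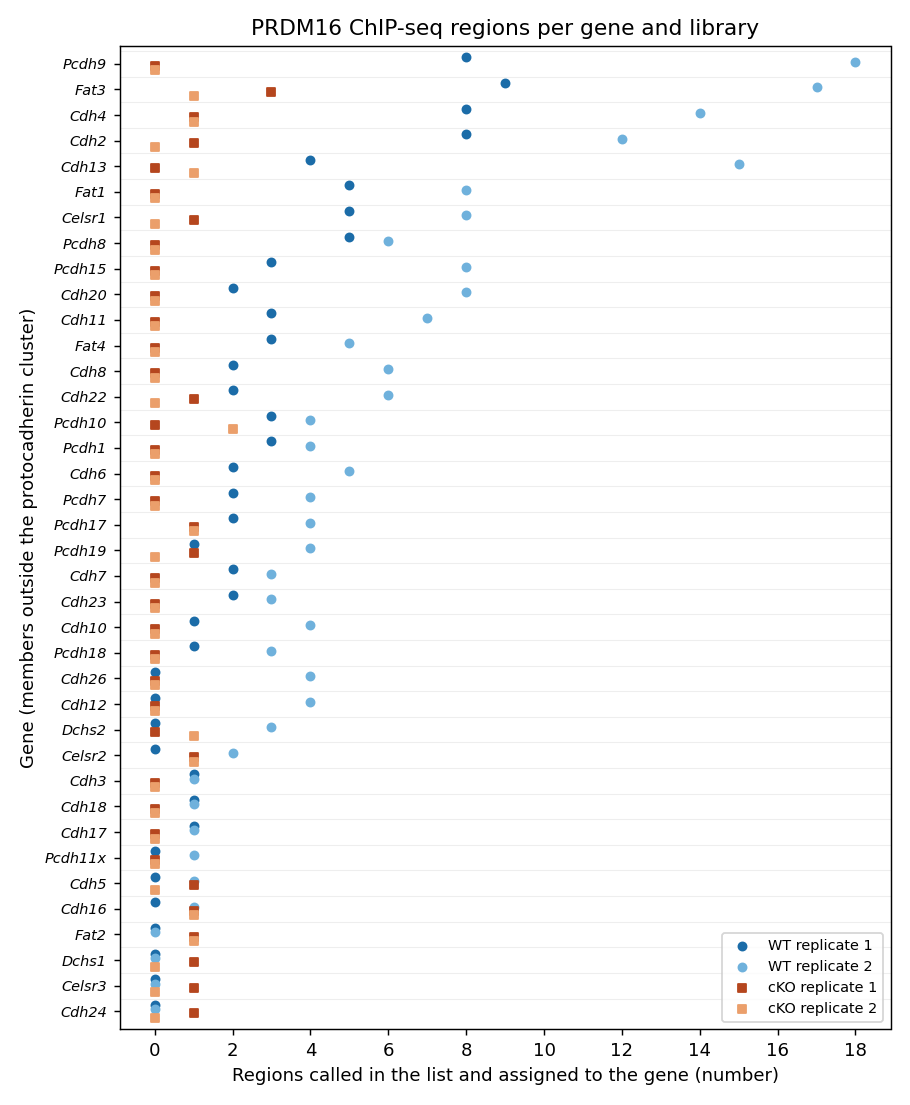
Number of regions (horizontal) assigned to each of the 38 members outside the cluster that had any region, in each of the 4 libraries (WT circles, cKO squares). Genes are ordered by the mean of the WT libraries, by which Pcdh9, Fat3, Cdh4 and Cdh2 lead, and the cKO libraries hold at most 3 regions at any gene.

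Among the classical cadherins, Cdh2 and Cdh4 carried most regions. Cdh2 encodes N-cadherin, the main cadherin of the radial glial adherens junction, and had 8 and 12 regions in WT and 1 and 0 in cKO. Of its 5 WT-only regions, 4 lay in the gene body and 1 lay 0.55 kb beyond an end. The strongest, at chr18:16713004-16714405 in the gene body, had a mean of 17.0-fold ± 2.12 (SD, n = 2), with the higher value, 18.5-fold, in WT replicate 2. The 1 region of cKO replicate 1, 5.34-fold, lay 0.84 kb inside an end of the gene and overlapped a region of 3.85-fold in WT replicate 1.

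Cdh4, which encodes R-cadherin, had 8 and 14 regions in WT and 1 and 1 in cKO. Its 6 WT-only regions were all in the gene body, spread over 306 kb with summits 24.3 kb or more apart, and mean folds from 6.87 to 13.1. Both cKO lists held instead a region 0.53 kb and 0.43 kb inside an end of the gene, at 5.09-fold and 4.84-fold, and neither WT list overlapped it. WT replicate 2 had a region of 4.47-fold close by, with its summit 278 bp outside the same end.

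The other type I genes had little. Cdh1, the E-cadherin of epithelia, and Cdh15, the M-cadherin of muscle, had no region in any list, and Cdh3 had 1 region in each WT list that did not overlap.

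The type II cadherins, which differ in expression between regions and layers of the brain, had fewer regions per gene. Cdh11 had 3 and 7 regions in WT, Cdh20 had 2 and 8, and Cdh8 had 2 and 6, with none in either cKO list at any of these genes and 2 WT-only regions at each. The strongest of them lay in the body of Cdh20 (chr1:104837781-104839105), at 18.01-fold and 10.3-fold. A Cdh8 region lay 2.97 kb inside the gene from its start site, at 9.81-fold and 5.54-fold.

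Cdh10 had 1 and 4 regions in WT and none in cKO, and its WT-only region lay 0.2 kb upstream of the gene, at 5.49-fold and 5.94-fold. Cdh7 and Cdh22 had 1 WT-only region each. Cdh6 had 2 and 5 regions in WT and 0 in both cKO lists, yet no region of Cdh6 was shared by the WT replicates. Cdh12, a gene of 1150 kb, had 0 and 4 regions in WT, and Cdh9 and Cdh19 had none in any list.

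Among the remaining Cdh genes, Cdh13 stood out by count. It encodes T-cadherin, which is held in the membrane by a lipid anchor, and had 4 and 15 regions in WT and 0 and 1 in cKO. Its 4 WT-only regions were spread over 536 kb of the gene body. The strongest, 22.3 kb from the left end of the gene, reached 13.1-fold and 21.4-fold. Cdh23, which encodes a hair-cell tip link cadherin, and Cdh17, which encodes an intestinal cadherin, had 1 WT-only region each, with mean folds of 8.57 and 9.55.

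The stand-alone protocadherins held 21 WT-only regions at 9 of 12 genes, where 16.6% of all protein-coding genes had such a region. These shares were not matched for assigned genome, with a median of 272 kb at the 12 genes and 45.8 kb over all genes. Pcdh9, a delta-1 protocadherin of the developing brain, had 8 regions in WT replicate 1, 18 in WT replicate 2 and none in either cKO replicate. All 8 of its regions shared by the WT replicates were WT-only. No other member had as many, while 62 of all protein-coding genes had more. Its strongest region, at chr14:93066374-93068736, lay in the gene body 825 kb from the start site. It was the strongest region of any member, with 26.2-fold and 36.9-fold enrichment and 58 and 139 fragments over the summit in WT replicates 1 and 2. A further region 4.43 kb beyond the far end of the gene had 16.2-fold and 17.8-fold.

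The other delta-1 genes had less. Pcdh1 and Pcdh7 had 1 WT-only region each, and Pcdh11x had 1 region, in WT replicate 2.

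Pcdh8, a delta-2 protocadherin whose expression follows neuronal activity, is a short gene of 4.54 kb. It had 5 and 6 regions in WT and none in cKO, and its 4 WT-only regions all lay upstream of the gene, over 79.1 kb. That is 25.5 WT-only regions per Mb, the highest density of the members. The strongest lay 50.8 kb upstream, at chr14:79821521-79822984, with 25.7-fold and 18.7-fold. Another, nearest to the gene, had 8.86-fold and 8.01-fold with its highest summit 1.00 kb upstream. It joins that interval with a weaker one of 4.62-fold in WT replicate 1, which reached over the start site.

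The start sites of members were compared with the lists through RefSeq promoters of mm10, 250 bases before to 50 after a start. The promoter table held 32 promoters of 29 members. Regions touched 13 of these promoters, at 12 genes: all 13 were touched by a WT list, 3 by both WT lists and 1 by a cKO list. The 3 were those of Pcdh8, Pcdh15 and Cdh6, and at Cdh6 the WT regions covered 162 and 100 bases that did not coincide. The share of all promoters touched by each list is not given here, and the WT lists are longer. The counts of touched promoters are therefore a description only. The Pcdh8 and Pcdh15 promoters are shown because both WT lists cover the same bases there, which are in capitals, 175 of 300 at Pcdh8 and 151 of 300 at Pcdh15. The Pcdh8 promoter is chr14:79771263-79771562, minus strand. The Pcdh15 promoter is chr10:73821617-73821916, plus strand, and belongs to a start inside the annotated body of that gene.
Pcdh8: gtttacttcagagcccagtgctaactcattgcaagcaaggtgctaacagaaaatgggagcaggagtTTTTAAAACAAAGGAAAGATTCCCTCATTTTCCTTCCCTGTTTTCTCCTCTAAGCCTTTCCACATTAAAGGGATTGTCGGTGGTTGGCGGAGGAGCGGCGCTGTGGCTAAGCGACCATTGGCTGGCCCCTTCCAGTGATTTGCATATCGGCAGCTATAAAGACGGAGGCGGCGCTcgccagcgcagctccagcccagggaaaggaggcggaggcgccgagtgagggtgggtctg
Pcdh15: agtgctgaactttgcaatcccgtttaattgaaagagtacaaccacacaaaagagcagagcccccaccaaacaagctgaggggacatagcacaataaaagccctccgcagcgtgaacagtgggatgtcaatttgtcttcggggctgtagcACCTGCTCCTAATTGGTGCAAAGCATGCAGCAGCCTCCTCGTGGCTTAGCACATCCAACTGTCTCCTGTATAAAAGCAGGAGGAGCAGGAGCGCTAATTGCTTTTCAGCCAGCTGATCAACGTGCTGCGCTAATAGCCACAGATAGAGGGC

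The Fat3 promoter, chr9:16502005-16502304, minus strand, was the only member promoter touched by a cKO list. It is shown with the 128 bases covered in cKO replicate 1 in capitals. WT replicate 2 covered 162 other bases, and its region did not overlap that of cKO replicate 1. The folds of these separate regions were 3.66 in the cKO list and 5.01 in the WT list.
Fat3: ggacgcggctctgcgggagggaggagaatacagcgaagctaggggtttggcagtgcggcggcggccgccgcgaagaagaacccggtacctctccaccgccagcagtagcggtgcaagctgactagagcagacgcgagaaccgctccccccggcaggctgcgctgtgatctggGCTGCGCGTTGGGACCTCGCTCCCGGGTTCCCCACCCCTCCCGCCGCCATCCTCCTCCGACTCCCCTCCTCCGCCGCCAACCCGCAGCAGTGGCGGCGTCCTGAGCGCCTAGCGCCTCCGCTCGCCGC

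Short motifs were searched in the promoters on both strands. The nuclear factor I motif TTGGCA was in 8 of 32 member promoters (25%) and in 14.1% of all 32851 promoters, and the GC box GGGCGG was in 11 (34.4%) and in 35.7%. The E-box CAGATG was in 3 (9.38%) against 17.2%, the homeodomain motif TAATTA in 1 (3.13%) against 5.29%, and the Sox motif ACAATG in none of the members' promoters against 12.6%. Of the promoters shown, those of Pcdh8 and Pcdh15 held none of the 5 motifs and that of Fat3 held TTGGCA. No motif holds another, but neighbouring matches can share end letters, as where TTGGCA runs into CAGATG, and a match describes the sequence alone.

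Pcdh15, which encodes the partner of Cdh23 in the hair-cell tip link, had 3 and 8 regions in WT and none in cKO. The strongest of its 3 WT-only regions lay 200 kb inside this gene of 1554 kb, at 20.1-fold and 20.3-fold. The region at the promoter above had 6.07-fold and 6.60-fold.

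The remaining delta-2 genes had 1 WT-only region each. Pcdh10 had 3 and 4 regions in WT and 0 and 2 in cKO. A Pcdh10 region 2.28 kb upstream of the start, at 9.29-fold and 6.95-fold in WT, touched a cKO replicate 2 region of 3.44-fold whose summit lay 2548 bp upstream, and it was 1 of the 2 regions of both WT lists that met a cKO list. Pcdh17 had 2 and 4 regions in WT and 1 and 1 in cKO. Its WT-only region lay 0.74 kb inside the gene, at 7.19-fold and 6.86-fold, while a region 0.61 kb upstream was in both cKO lists, at 7.25-fold and 4.60-fold, and in neither WT list. With lists of equal length, Pcdh17 had 0 and 0 regions in WT and 1 and 1 in cKO, so its direction turned there. Pcdh20 and Pcdh12 had no region in any list.

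The Fat, Dchs and Celsr genes were divided. Fat3, Fat1, Fat4 and Celsr1 held all 14 of the family's WT-only regions, and Fat2, Dchs1, Dchs2, Celsr2 and Celsr3 had none.

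Fat3, which is known for shaping the polarity of retinal neurons, had 9 and 17 regions in WT and 3 and 1 in cKO. Its strongest region, at chr9:15955016-15955747, had 23.6-fold and 27.6-fold in WT and was also called in cKO replicate 1 at 7.50-fold, the highest fold of any cKO region at a member. It was the other region of both WT lists that met a cKO list. The next region shared by both WT lists along the gene, with 14.6-fold and 20.7-fold, was in neither cKO list. In all, Fat3 had 6 WT-only regions over 471 kb, and a weaker region of 4.03-fold and 3.92-fold was in both cKO lists and, at 5.41-fold, in WT replicate 2.

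Fat1 had 5 and 8 regions in WT and none in cKO, with 2 WT-only regions. Fat4, the receptor in the Fat4 and Dchs1 pair of planar polarity, had 3 and 5 in WT and none in cKO, and its strongest WT-only region lay 36.2 kb beyond the gene, at 11.2-fold and 17.4-fold. Another, 0.2 kb upstream of the annotated start of the gene, had 6.81-fold and 4.10-fold. The ligand genes differed from this: Dchs1 had a region only in cKO replicate 1, and Dchs2 had 0 and 3 regions in WT and 0 and 1 in cKO, so that its groups overlapped.

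Celsr1, a core component of planar cell polarity, had 5 and 8 regions in WT and 1 and 0 in cKO. Its 3 WT-only regions lay within 8.99 kb of each other in the gene body, the closest set of 3 or more at any member, and reached 10.8-fold and 19.5-fold at the strongest. Celsr2, which acts in cilia, had 0 and 2 regions in WT and 1 and 1 in cKO, so its groups overlapped. Celsr3, which acts in axon tracts, had none in WT and 1 and 0 in cKO. Fat2, a Fat gene of cerebellar granule cells, was, in the lists as deposited, the only gene of the naming rule with more regions in each cKO list than in each WT list: it had none in WT and 1 in each cKO replicate, at 6.14-fold and 5.77-fold. With lists of equal length, Celsr2, Cdh16 and Pcdh17 had the same pattern, with 0 and 0 regions in WT and 1 and 1 in cKO.

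**Figure D4:**
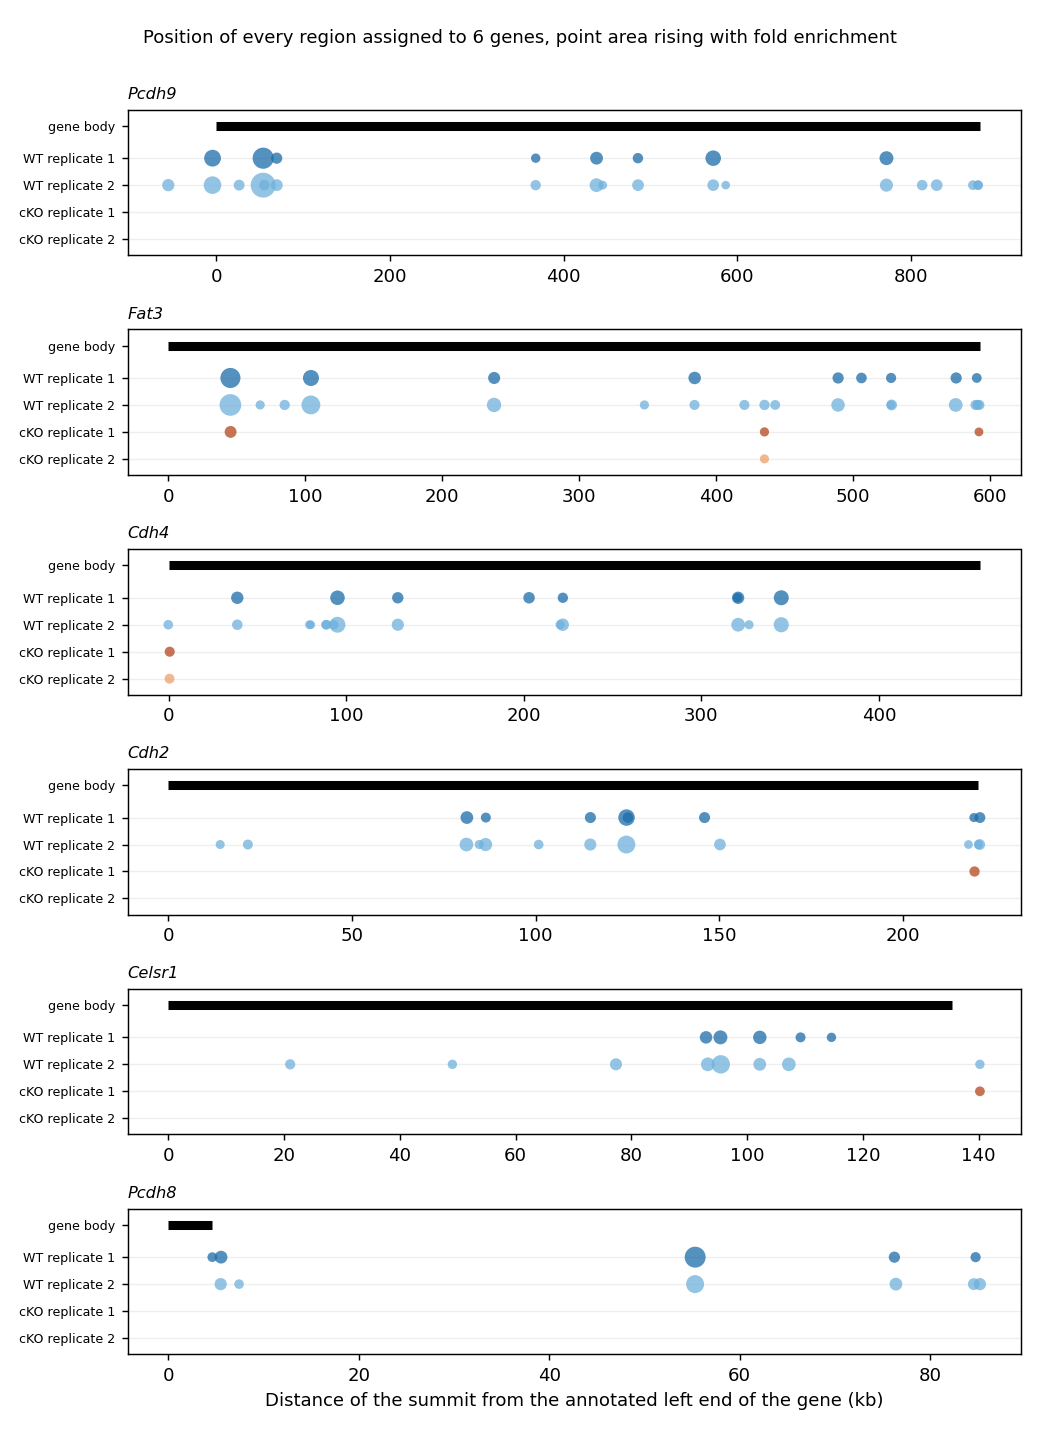
Position of every region assigned to Pcdh9, Fat3, Cdh4, Cdh2, Celsr1 and Pcdh8, as the distance of its summit from the gene's annotated left end (horizontal, kb), in each of the 4 libraries. The black bar is the gene body, the point area rises with fold enrichment, and both WT libraries share some positions along each gene, such as 8 at Pcdh9, where WT replicate 2 has 18 regions.

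The clustered protocadherins had few regions assigned to them. Of their span of 912 kb, from chr18:36930285 to 37841873, 581 kb was assigned to them. The lists held 2 and 6 regions assigned to them in WT and 0 and 0 in cKO. The rest of the span, such as the DNA between the Pcdhb genes, was not assigned to members, so these counts do not cover the whole cluster. Because the Pcdha and the Pcdhg genes overlap each other, 1 region counts for up to 21 genes, and 32 of the 57 genes therefore had more regions in each WT list than in each cKO list from those few regions. The regions in both WT replicates came to 1, at chr18:37178548-37178829 inside 14 Pcdha genes, with 5.61-fold and 6.28-fold. It was absent from both cKO lists. Another place between the Pcdha and the Pcdhb genes held regions of all 4 lists. It lay inside the gene model Gm37013 and so was not assigned to a member. Its highest folds were 7.77 and 10.3 in WT and 5.83 and 5.40 in cKO. The region of WT replicate 2 spans this place and overlaps those of the other 3 lists, while those of WT replicate 1 and cKO replicate 2 do not overlap each other. The treatment of reads that match several similar copies is among the settings not given in the sources used here.

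WT-only regions at members lay mostly in gene bodies. Of the 62, 47 (75.8%, interval 63.8 to 84.8) were in the body, 11 (17.7%) outside, and 4 (6.45%, 2.54 to 15.4) within 1 kb of an annotated gene end, those of Cdh2, Cdh10, Fat4 and Pcdh17. Over all genes the shares were 58.5%, 34.6% and 6.92%. Place was set by the summit with the higher fold. The Pcdh8 region that reached over the start site thus counted as outside, with that summit 1001 bp from the gene. The Pcdh15 region at the promoter shown counted as in the body. The cKO lists were placed differently: 10 of 16 and 3 of 10 of their member regions were at gene ends, against 6 of 91 and 16 of 201 in the WT lists. Over all assigned regions the same held, with 41.8% and 42.0% at gene ends in cKO and 12.3% and 12.01% in WT.

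Regions common to both cKO lists numbered 6, at Fat2, Pcdh17, Cdh4, Celsr2, Cdh16 and Fat3, with mean folds from 3.97 to 5.96. Those 6 genes are 6 of 44 members outside the cluster, beside 6.83% of all protein-coding genes. At Fat2, Pcdh17 and Cdh4 the region was in neither WT list, and at Celsr2, Cdh16 and Fat3 it was also in WT replicate 2. Per length, members held 0.344 such regions per Mb and all genes 0.845. Whether regions of the cKO lists mark PRDM16 was not tested.

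The WT lists differed in length and in the share of regions they had in common: 67 of the 91 member regions of WT replicate 1 overlapped WT replicate 2, and 66 of the 201 of WT replicate 2 overlapped WT replicate 1. Among lists of 3088 regions, 13 WT-only member regions were left, 2 each at Pcdh9, Cdh4 and Celsr1 and 1 each at Pcdh8, Pcdh15, Fat3, Cdh13, Cdh2, Fat4 and Cdh20.

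Genes that work with the members were read from lists. Of 18 catenins and other cadherin partners, 14 had a WT-only region, beside the 16.6% of all genes, with 39 such regions. Shroom3, which couples junctions to apical constriction, had 7 and 12 regions in WT and none in cKO, and all 7 shared regions were WT-only. Ctnnb1, beta-catenin, had 5 and 5 in WT and none in cKO, and 1 region in Ctnna1, alpha-E-catenin, reached a mean of 30.6-fold ± 12.7 (SD, n = 2). Of 20 Fat, Dachsous and planar polarity partners, 8 had one, led by Tead1, the DNA-binding partner of Yap, with 10 and 17 regions in WT, none in cKO and 10 WT-only regions. Vangl2, a core polarity gene, had 3 WT-only regions, while Dvl1, Fzd6, Lats1, Tead2 and Mpp5 had no region in any list. Of 14 regulators and partners of the clustered protocadherins, 4 had a WT-only region, with 5 of the 8 regions at the cohesin gene Stag2. A region in both cKO lists was found at 5 of the 18, 0 of the 20 and 3 of the 14 genes, beside 6.83% of all genes. Ctnna1 and Stag2 were among those genes. Gene length was not taken into account in these counts.

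Peak lists show where PRDM16 ChIP-seq regions were called and not which genes are expressed, so the labelled tissue was not checked by markers. As a description of binding, all 6 radial glial markers (Pax6, Sox2, Hes1, Hes5, Slc1a3 and Fabp7) had WT-only regions, 37 in all, as did 2 of 3 neuronal markers with 7 and 1 of 4 endothelial markers with 1, beside 16.6% of all genes. The length of genome assigned to the markers was not taken into account. The radial glial markers Pax6, Hes1 and Slc1a3 also had regions in both cKO lists. The endothelial cadherin Cdh5, itself a member, had 0 and 1 regions in WT and 1 and 0 in cKO, and none shared by replicates. Prdm16 protein in the cKO lysates was not measured here.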

How the data were processed

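PRDM16 ChIP-seq peak lists of 2 WT and 2 cKO cortex libraries were used. Per the submitters' processing notes, Bowtie2 2.2.8, MACS2 2.1.1, FastQC, cutadapt and the mm10 build were used, with settings not given in the sources used here. The authors deposited 1 list per library. In it the enrichment is a fold over local background (a ratio), the significance is given by q-value and by p-value, each as −log10 (largest q-value 0.0491, 0.0440, 0.0465 and 0.0454), and the deposited score column was not used. Fold values are the authors' own and rank regions within a list.

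Overlapping intervals of a list were merged, lists were joined at 1 bp of overlap on chromosomes 1 to 19, X and Y, and summits were assigned to RefSeq genes (GRCm38.p6) in Python 3.11.15 with pandas 2.3.3 and numpy 2.4.6. Regions tied between overlapping genes count for each gene, and once in totals. Pileup and background were solved from fold and p-value through the Poisson distribution (scipy 1.17.1) for at least 99.9% of regions per list. Assignment and overlap were tested on simulated peaks. Single genes were compared by exact permutation over the 4 libraries, and shares carry Wilson 95% intervals.

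The members and the lists were chosen with earlier results of these data known. Named are the 9 Fat, Dchs and Celsr genes; Cdh1, Cdh2, Cdh4, Cdh6, Cdh8, Cdh10, Cdh11 and Cdh13; the 10 members with most WT-only regions; the nearest members of the 10 strongest WT-only regions; those with a region in both cKO lists; and members with none. Other members were named after their values were seen, and so was the grouping by cadherin type. Alternatives were a 200 bp summit window, a stricter q-value, equal list lengths, shorter distances, a wider gene end, unmerged lines, each library left out and a replicate block. Replicate numbers match in the labels, but with 2 pairs nothing ties them to shared animals or batches.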

Additional observations from a re-analysis of the deposited data

How the results depend on the processing

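Equal list lengths moved most values: the ratio of member regions fell to 2.05, regions in both WT lists to 14, WT-only regions to 13, members with one to 10, WT-only regions per Mb to 0.746, the clustered protocadherin count to 0, the gene-end share to 0% and the named genes with both WT lists above both cKO lists from 16 to 7, while those with both cKO lists above both WT lists went from 1 (Fat2) to 4 (Fat2, Pcdh17, Cdh16 and Celsr2). The difference in regions, mean WT minus mean cKO, turned from 2 to -1 at Pcdh17 and from 1 to -0.5 at Dchs2. These lists hold fewer regions by construction, and the named genes were chosen in part on the values compared here. Leaving out a library moved the ratio between 7 (without WT replicate 2) and 15.46, regions in both WT lists, then the remaining list, between 64 and 201 (without WT replicate 1), WT-only regions between 63 and 195, members with one between 38 and 68, their density between 3.61 and 11.2 per Mb, the clustered count between 1 and 6 and regions in both cKO lists between 6 and 16. With a single list, presence in both replicates is no longer asked.

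As a replicate block, the ratio within replicate number 1 was 5.69 and within number 2 it was 20.1. The same 16 named genes had more regions in WT than in cKO within each replicate number. The smallest p of the exact permutation test within the block is 0.5. Deviations from the genotype means of same-numbered libraries had a correlation of 0.25 over the 73 members with a region and 0.0191 over 9609 genes, and the numbers were not taken as pairs. The 73 include clustered protocadherins that share the same few regions, so they are not 73 separate values. Of the alternatives to results that answer a comparison, 71 stayed and 20 moved by over 1.5 times or past the spread. Of the differences at single named genes under the stricter q-value and equal lengths, 15 stayed within 1.5 times, 29 moved by more or to 0 or away from it, and those of Pcdh17 and Dchs2 turned. Depth could be read only as background at called regions, and regions below a list's limit are not seen.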

Other observations

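The 100 kb limit leaves out many regions whose nearest gene is a member. Of 107 regions in both WT lists with a member as nearest gene, 43 (40.2%, interval 31.4 to 49.7) lay farther than 100 kb, beside 19.9% over all genes. In neither cKO list were 40 of the 43, beside 1901 of 2008 such distant regions over all genes. The last region inside the limit lay 83.4 kb from Cdh7, with 6.19-fold and 5.75-fold in WT replicates 1 and 2, and the first outside lay 100.7 kb from Pcdh18, with 9.63-fold and 11.3-fold.

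The type II cadherins and Pcdh18 were touched most by this limit. Cdh8 had 6 such regions, from 451 kb to 1547 kb away, and the nearest of them, at chr8:98572560-98573841, had 22.0-fold and 21.0-fold, above the folds of both Cdh8 regions inside the limit. Pcdh18 had 5, with a highest mean of 16.7-fold, and Cdh6, which had no WT-only region inside the limit, had 4, with a highest mean of 11.6-fold. Pcdh20, with no region in any list inside the limit, had 3, the nearest 371 kb away. At such distances the nearest gene is a naming rule and the gene concerned was not tested.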
